A study of Mus musculus with 3 samples.

Results

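A set of 10 genes of matrix turnover was followed through the cells of 3 mouse pancreatic tumours: the matrix metalloproteinases Mmp2, Mmp3, Mmp7, Mmp9, Mmp11, Mmp13 and Mmp14, and the tissue inhibitors of metalloproteinases Timp1, Timp2 and Timp3. They were chosen by name, 10 of the 28692 genes of the count matrix, and all 10 had enough counts to be tested. Dissociated cells had been sorted as CD45-, CD31- and PDGFRa- and profiled with 10x 3' v2 chemistry, in which each captured transcript is counted once as a unique molecular identifier (UMI). All 3 samples carry the same label, KPC tumor, and the same strain, KPf/fC. KPC names a family of genetically engineered mouse models of pancreatic cancer that use a Cre recombinase; the exact alleles, the Cre driver, the age of the mice and any treatment are not given in the labels. Nor do the labels say whether the tumours came from separate mice, so the p-values below speak for these 3 samples only. They measure how far class differences varied from sample to sample, pooled over the classes. A shift common to all classes of a sample is taken out by the model. There was no control group, and the comparisons are between classes of cells within the tumours.

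Matrix metalloproteinases are zinc-dependent proteases that are made as inactive proenzymes and that together cleave nearly all proteins of the extracellular matrix. They are grouped by what they cut and where they act: collagenases (Mmp13), gelatinases (Mmp2 and Mmp9), stromelysins (Mmp3, with Mmp11 as a related enzyme), matrilysins (Mmp7) and membrane-anchored enzymes (Mmp14). The tissue inhibitors bind the active site of these enzymes, and Timp2 has a second role, since a complex of Mmp14 and Timp2 at the cell surface brings the Mmp2 proenzyme to a neighbouring Mmp14 molecule that activates it. Pancreatic carcinoma is known for a dense collagen-rich stroma in which these enzymes and inhibitors are made by several kinds of cells.

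Cells were classed by 2 marker genes each, both with at least 1 UMI: Epcam and Cdh1 for epithelial, Dcn and Col3a1 for fibroblast, Rgs5 and Higd1b for mural (the pericytes and smooth muscle cells that wrap vessels), Pecam1 and Cdh5 for endothelial, Upk3b and Lrrn4 for mesothelial cells. Of 19302 kept cells, 13228 fell into a single class. Because of the sort, the endothelial and fibroblast classes are the cells left after gates against CD31 and PDGFRa, immune cells were gated out by CD45, and shares of UMIs are shares of the sorted cells. Tumours 1, 2 and 3 gave 1913, 1507 and 2984 epithelial, 1841, 1914 and 2218 fibroblast, 194, 131 and 256 mural and 186, 15 and 58 endothelial cells. Cells fitting more than 1 class were dropped, which left 6, 0 and 5 mesothelial cells, because 234 of 240, 76 of 76 and 59 of 64 cells with both mesothelial markers also had both fibroblast markers. Mesothelial values below therefore come from all 240, 76 and 64 cells, kept as mesothelial whatever else they fitted, a choice made after the data were seen. Levels are given as CPM, the UMIs of a gene scaled to all UMIs of the summed cells of a class in a tumour, and values are listed for tumours 1, 2 and 3 in that order.

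The barcodes held 53162622 to 67262634 UMIs per tumour, and 50, 65 and 57 barcode sequences occurred in more than 1 tumour, counted for each pair of tumours. The median UMI count of a cell ranged from 7734 to 10618 in epithelial, 4990 to 9027 in fibroblast, 3316 to 5415 in mural and 3005 to 4869 in endothelial cells, with tumour 3 lowest in each. The endothelial sum of tumour 2, with under 20 cells, was left out of the tests, which compare endothelial cells in tumours 1 and 3 only. The fibroblast class was not alike in the 3 tumours. In it Lum, a collagen-binding proteoglycan of fibroblasts, was at 774, 281 and 1129 CPM, and the epithelial keratin Krt18 at 669, 443 and 250 CPM. Cdkn2a, a cell-cycle inhibitor gene, was at 185, 1719 and 503 CPM in the fibroblast class. In epithelial cells Cdkn2a was at 441, 869 and 726 CPM, lower than in fibroblast cells only in tumour 2, and in mural cells at 93.3, 309 and 105 CPM. The part of these differences in the values of the members was not tested, but each member is also given for fibroblast cells with a Lum UMI. Those cells were not alike in Cdkn2a either. It was at 152, 1381 and 539 CPM with Lum and at 236, 1937 and 382 CPM without. A further 811, 2208 and 1429 cells (13.98%, 36.4% and 19.2%) fitted no class.

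Fibroblast cells held more of 9 of the 10 members than epithelial cells, and less only of Mmp7. All 10 passed the quasi-likelihood test of edgeR after Benjamini-Hochberg adjustment, where 39.6% of the 14868 genes tested passed, 22.7% higher and 17% lower. Mural cells exceeded epithelial cells in 6 members (16.3% of genes) and were lower in Mmp7 (17.6%), a total of 7 beside 34%. Endothelial cells differed from epithelial cells in 3 members beside 22.5% of genes, with Mmp13 and Timp3 higher (10.7%) and Mmp7 lower (11.8%). Against fibroblast cells, mural cells were higher in Mmp9 and Mmp11 (5.91% of genes) and lower in Mmp2, Mmp3, Timp1, Timp2 and Timp3 (8.77%), together 7 members beside 14.7%. Endothelial cells were lower than fibroblast cells in 7 members (10.2% of genes) and higher in 0 (7.02%), beside 17.2% in either direction. They were lower than mural cells in 4 members, Mmp9, Mmp11, Mmp14 and Timp1 (6.31% of genes), and higher in 0 (6.06%), beside 12.4%. The median log2 fold change of the 10 members was 2.54 for fibroblast against epithelial cells and 1.24 for mural against epithelial cells, where the medians over all genes tested were 0.04 and -0.11.

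**Figure D1:**
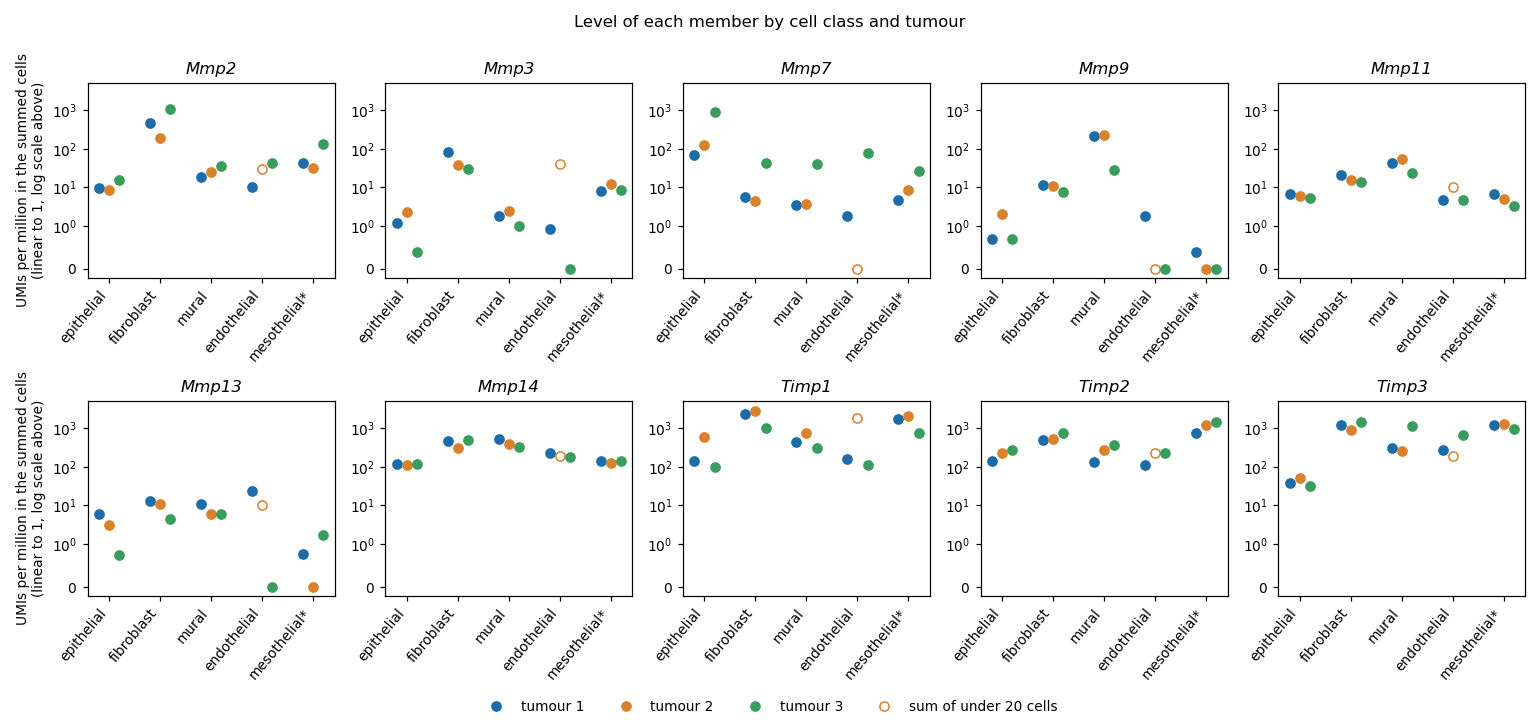
Level of each member in CPM (linear to 1, log scale above) by cell class; each point is the summed cells of a class in 1 tumour, an open point a sum of under 20 cells, and mesothelial* all cells with both mesothelial markers. Mmp7 stands highest in epithelial cells and Mmp9 in mural cells of every tumour, and Mmp2 in fibroblast cells. The mural Mmp9 value of tumour 3 rests on 28 UMIs, 21 of them in 1 cell.

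Mmp2, the gelatinase that cleaves denatured collagen and type IV collagen of basement membranes, was a gene of fibroblast cells. They held 469, 195 and 1063 CPM of it (575 ± 444 CPM, SD, n = 3), and epithelial cells 9.39, 8.47 and 15.8 CPM. The ranges did not overlap, and fibroblast cells were far higher in each tumour. The log2 fold change was 5.52 ± 0.32 (SE; edgeR adjusted p = 4.851e-08). Mural cells held 18.8, 25.5 and 35.04 CPM, a log2 fold change of -4.38 ± 0.34 from fibroblast cells (edgeR adjusted p = 1.903e-06). Of all Mmp2 UMIs in the sorted cells of a tumour, 87.5%, 75.3% and 87.0% lay in fibroblast cells.

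The tumours differed in Mmp2. After every cell was thinned to 2000 UMIs, 54.3%, 32.4% and 78.9% of fibroblast cells had an Mmp2 UMI, and 78.4%, 66.8% and 91.0% before thinning. In thinned epithelial cells, given for the level in a class with little of the gene, the share was 1.73%, 1.26% and 3.15%. Tumour 3 was highest and tumour 2 lowest, and the values moved with the share of fibroblast cells holding Lum, 68.4%, 47.4% and 78.4%. Within the cells with a Lum UMI, Mmp2 was at 641, 356 and 1213 CPM, and within those without at 206, 90.9 and 564 CPM, so the order of the tumours was the same on both sides of that split. Mural cells stood above epithelial cells in Mmp2 by a log2 fold change of 1.14 ± 0.34 (edgeR adjusted p = 0.01962), a call that was lost without tumour 1 (adjusted p = 0.12) and without tumour 3 (adjusted p = 0.05679).

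Mmp14, the membrane-anchored activator of Mmp2 that also cleaves fibrillar collagen, was shared by fibroblast and mural cells. Its level was 456, 306 and 486 CPM in fibroblast cells and 517, 381 and 329 CPM in mural cells. These overlapped, and their log2 difference, mural minus fibroblast, was -0.15 ± 0.18 (edgeR adjusted p = 0.6585). Epithelial cells held 120, 112 and 120 CPM, with a highest value 1.07 times the lowest, the narrowest range of any member in the 5 classes. Fibroblast cells exceeded them by a log2 fold change of 1.86 ± 0.19 (edgeR adjusted p = 3.699e-06) and mural cells by 1.71 ± 0.19 (edgeR adjusted p = 1.157e-05). Endothelial cells, at 234, 195 and 176 CPM, lay below mural cells by 1.16 ± 0.23 on the log2 scale (edgeR adjusted p = 0.004642). Mmp14 was thus measured in every class, with a UMI in 61.2%, 56.3% and 56.2% of epithelial cells before thinning and 19.8%, 18.5% and 21.8% after it.

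Timp2, inhibitor and partner of Mmp14, was highest in mesothelial cells. They held 745, 1248 and 1420 CPM, fibroblast cells 505, 537 and 772 CPM, and the mesothelial value was the higher in each tumour. The log2 fold change, mesothelial minus fibroblast, was 0.98 ± 0.16 (edgeR adjusted p = 0.001047), and Timp2 was the only member that was higher there in mesothelial cells. Without the tumour as a block in the model, this adjusted p was 0.1399. Epithelial cells held 144, 232 and 281 CPM and mural cells 136, 269 and 364 CPM, both lowest in tumour 1 and highest in tumour 3. The log2 difference of these 2 classes was 0.12 ± 0.18 (edgeR adjusted p = 0.6579), so that Timp2, unlike Mmp14, was not higher in mural than in epithelial cells by this test.

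Transcripts of the 3 parts of the activation complex were found in the same cell more often in fibroblast than in epithelial or mural cells. The proteins and their complex were not measured. Whether the shares exceed what the frequency of each gene alone would give was not tested. Before thinning, 65.8%, 58.3% and 69.9% of fibroblast cells had at least 1 UMI each of Mmp2, Mmp14 and Timp2, compared with 5.07%, 3.92% and 6.30% of epithelial and 5.67%, 6.87% and 7.03% of mural cells. At 2000 UMIs a cell these shares fell to 20.04%, 12.3% and 34.3% of fibroblast cells, to at most 0.268% of epithelial and to at most 2.34% of mural cells. Mural and epithelial cells held Mmp14 and Timp2, and what they had little of was Mmp2. Among thinned fibroblast cells, Mmp14 was found in 61.4%, 60.1% and 59.2% of those with an Mmp2 UMI and in 45.4%, 39.5% and 48.3% of those without. For Timp2 these shares were 63.2%, 63.6% and 73.0% with an Mmp2 UMI and 59.5%, 60.2% and 69.7% without, a smaller gap.

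**Figure D2:**
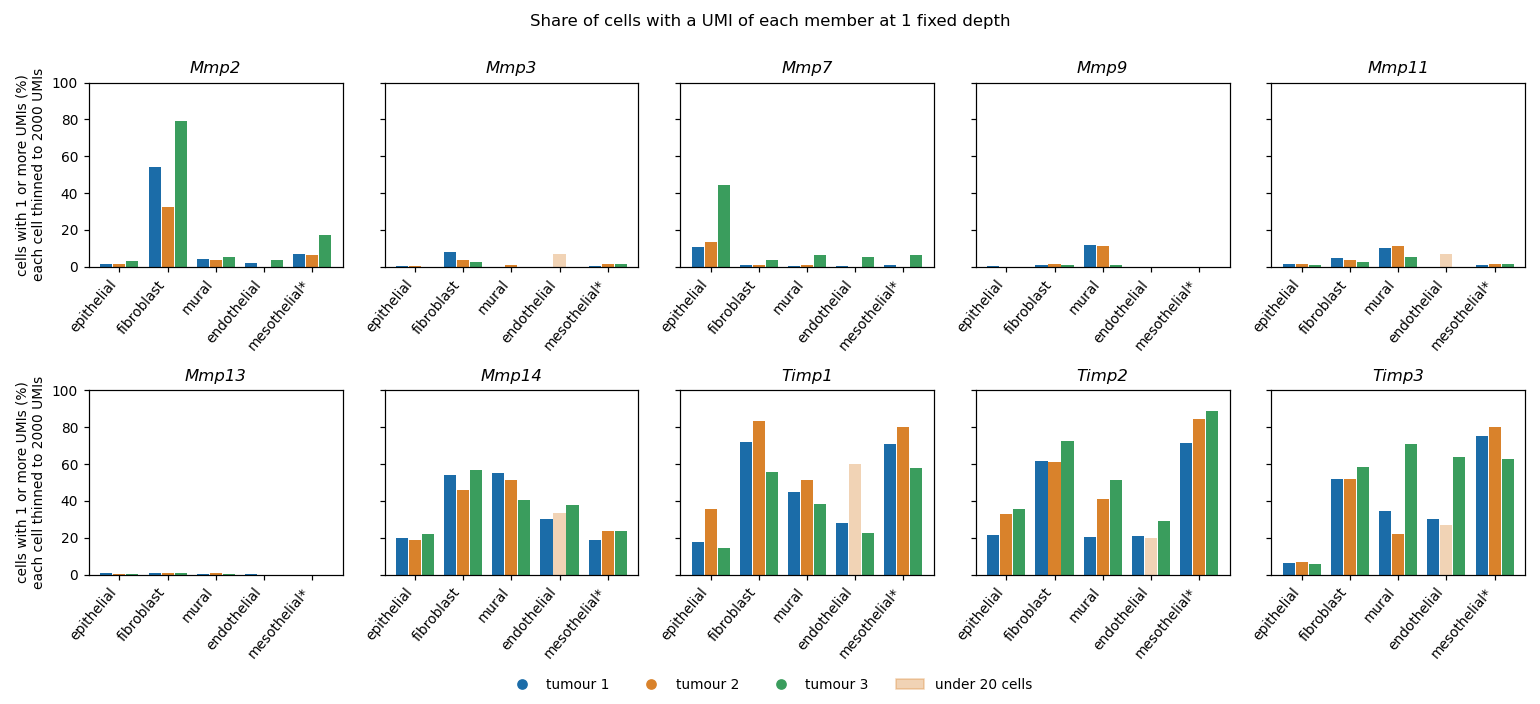
Share of cells (percent) with 1 or more UMIs of each member after thinning every cell to 2000 UMIs, by class and tumour; pale bars rest on under 20 cells and mesothelial* is all cells with both mesothelial markers. Mmp2 reaches 78.9% of fibroblast cells, whereas Mmp3, Mmp9, Mmp11 and Mmp13 stay under 12% of cells in every class with at least 20 cells.

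Mmp9, the other gelatinase and best known as a product of neutrophils and macrophages, was highest in mural cells. Its level there was 213, 227 and 28.9 CPM. Fibroblast cells held 11.8, 11.1 and 7.58 CPM and epithelial cells 0.699, 1.99 and 0.705 CPM. Every mural value exceeded every fibroblast value, and tumour 3 stood well below the other tumours. The mural value of tumour 3 rests on 28 UMIs, 21 of them in 1 cell, and so does its lead over fibroblast cells there. The log2 fold change of mural cells was 6.89 ± 0.48 over epithelial cells (edgeR adjusted p = 1.77e-07) and 3.55 ± 0.41 over fibroblast cells (edgeR adjusted p = 5.326e-05), and the latter lay between 3.23 and 4.12 when each tumour was left out in turn. Endothelial cells had 2 Mmp9 UMIs in 259 cells and mesothelial cells 1 UMI in 380 cells. The pooled level of mural cells was 108 times the endothelial one (95% interval 29.6 to 892, counting error only).

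Few mural cells carried this signal. An Mmp9 UMI was found in 28 of 194, 20 of 131 and 6 of 256 mural cells, and after thinning in 11.9%, 11.5% and 1.17%, against 0.209%, 0.133% and 0.0335% of epithelial cells. Single cells reached 66, 69 and 21 UMIs, and 8, 4 and 1 cells had 10 or more. Mural cells held 33.7%, 21.2% and 11.02% of the Mmp9 UMIs of the sorted cells of a tumour, beside 26.4%, 27.8% and 37.0% in fibroblast cells and 22.5%, 46.2% and 33.1% in cells of no class. The mural cells with Mmp9 had 0 UMIs of Ptprc, the gene of the CD45 antigen, and 0 of Csf3r, S100a8 and S100a9, genes of neutrophils. Those without Mmp9 also had 0 UMIs of Ptprc and Csf3r, and 1, 1 and 24 of S100a8 and 0, 1 and 23 of S100a9. The cells had been sorted as CD45-, and these counts of 0 decide nothing about the source of Mmp9. Cd68, a gene of macrophages, had 1, 0 and 1 UMIs in them and 3, 1 and 0 UMIs in the mural cells without Mmp9, and the part of such cells in the Mmp9 level was not tested.

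Of the other members, Mmp14 was higher in the mural cells with Mmp9 in each tumour. Their Mmp14 level was 1268, 612 and 477 CPM, on 196, 104 and 14 UMIs. That of mural cells without Mmp9 was 396, 321 and 324 CPM. The median UMI count of the cells was 5226.5, 6992 and 4744.5 with Mmp9 and 5137, 5098 and 3237.5 without. Timp1 was at 582, 1330 and 238 CPM with Mmp9 and 404, 596 and 302 CPM without. Mmp2 had 5, 8 and 0 UMIs in the cells with Mmp9. Mmp11 was at 45.3, 76.5 and 34.0 CPM with Mmp9, on 7, 13 and 1 UMIs, and at 42.7, 48.9 and 23.4 CPM without. After thinning, an Mmp11 UMI was found in 8.70%, 13.3% and 0% of mural cells with an Mmp9 UMI. The share without an Mmp9 UMI was 10.5%, 11.2% and 5.53%, higher in tumours 1 and 3. In tumours 1 and 2 the mural cells with Mmp9 held 12 of the 12 and 4 of the 5 Mmp13 UMIs of the class, but 0 of 6 in tumour 3. The Mmp13 UMIs of the class lay in only 3, 2 and 2 mural cells. Timp3 was lower in them in tumours 1 and 3 (104 against 344 CPM and 238 against 1140 CPM) and higher in tumour 2 (347 against 243 CPM). Timp2 was at 142, 288 and 238 CPM with Mmp9 and 135, 264 and 368 CPM without, and Mmp3 and Mmp7 had at most 1 UMI each in the cells with Mmp9. In tumour 3 the Timp2 and Timp3 levels with Mmp9 rest on 7 UMIs each. Of the class markers, Rgs5 was at 3183, 2343 and 2451 CPM against 6051, 6248 and 7128 CPM, and Higd1b at 1177, 700.4 and 851 CPM against 1278, 1189 and 1386 CPM. Cspg4, another gene of pericytes, was higher in the cells with Mmp9, at 233, 177 and 170.2 CPM against 159, 79.5 and 65.9 CPM. Notch3 and Myh11, other genes of mural cells, were lower in the cells with Mmp9 in each tumour. Notch3 was at 116, 153 and 204 CPM against 263, 254 and 367 CPM, and Myh11 at 0, 17.7 and 0 CPM against 108, 180 and 113 CPM. These are cells sorted by a measured gene within 1 sample each, and the differences are given without a test.

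Mmp3, a stromelysin with a broad range of matrix substrates, was another fibroblast gene, found in a minority of the cells. Its level was 82.98, 37.1 and 29.2 CPM in fibroblast cells and 1.18, 2.24 and 0.392 CPM in epithelial cells, a log2 fold change of 5.44 ± 0.38 (edgeR adjusted p = 1.566e-07). The ranges did not overlap. Mural cells had 5 Mmp3 UMIs in all, a log2 fold change of -5.00 ± 0.55 from fibroblast cells (edgeR adjusted p = 4.158e-05). In endothelial cells 4 of the 5 UMIs lay in a single cell of tumour 2. Among fibroblast cells 11.4%, 6.90% and 4.599% had a UMI, and the richest 5% of them held 86.3%, 95.6% and 100% of the UMIs. Cells with Lum held 132, 64.3 and 34.5 CPM, and those without 7.97, 19.6 and 11.5 CPM. In tumour 2, 39.7% of Mmp3 UMIs lay in cells of no class, compared with 0.422% and 1.86% in the other tumours. A single cell held 270 of these 580 UMIs, and without it the share was 26.1%.

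Mmp11, also called stromelysin-3 and known as a gene of tumour stroma, was low in all classes and highest in mural cells. They held 43.1, 54.6 and 23.7 CPM, fibroblast cells 21.4, 15.3 and 14.2 CPM, and epithelial cells 6.90, 6.03 and 5.45 CPM. The 3 classes did not overlap. Mural cells exceeded epithelial cells by a log2 fold change of 2.60 ± 0.26 (edgeR adjusted p = 5.516e-06) and fibroblast cells did so by 1.51 ± 0.24 (edgeR adjusted p = 0.000178). The step from fibroblast to mural cells, 1.10 ± 0.25, was less secure: its edgeR adjusted p was 0.009716, but 0.1011 without tumour 1, 0.07697 without tumour 2 and 0.05198 with only Lum-positive fibroblast cells. Mmp9 and Mmp11 were both highest in mural cells but were spread differently, since Mmp11 was found in 22.2%, 24.4% and 7.42% of mural cells with at most 3 UMIs in any of them.

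Mmp7, the matrilysin, a small protease of glandular epithelia that also cleaves cell-surface proteins, was the only member highest in epithelial cells. Its level there was 68.4, 126 and 912 CPM, compared with 5.69, 4.43 and 43.5 CPM in fibroblast and 3.59, 3.64 and 40.2 CPM in mural cells. Within each tumour the epithelial value was the highest of the 5 classes. The log2 fold change of fibroblast cells was -4.21 ± 0.26 (edgeR adjusted p = 6.35e-08), that of mural cells -4.63 ± 0.32 (edgeR adjusted p = 1.811e-07) and that of endothelial cells -4.25 ± 0.39 (edgeR adjusted p = 4.069e-06). All 3 of these classes had their highest Mmp7 level in tumour 3, the tumour with the most Mmp7 in its epithelial cells. Among the 4 other classes no neighbours in the order of mean level passed the test, with adjusted p of 0.4921 or more.

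Tumour 3 stood apart in epithelial Mmp7, with a level 13.3 times that of tumour 1. A UMI was found in 19.6%, 25.1% and 58.1% of epithelial cells, and in 10.6%, 13.6% and 44.1% after thinning. In thinned mural cells the share was 0.515%, 0.763% and 6.25%. Cells with 10 or more Mmp7 UMIs made up 2.04%, 4.31% and 25.3% of epithelial cells, and the fullest held 38, 51 and 132 UMIs. The difference between the tumours lay in the number of cells with many UMIs as well as in the number with any. With 3 tumours of 1 label it has no test.

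**Figure D3:**
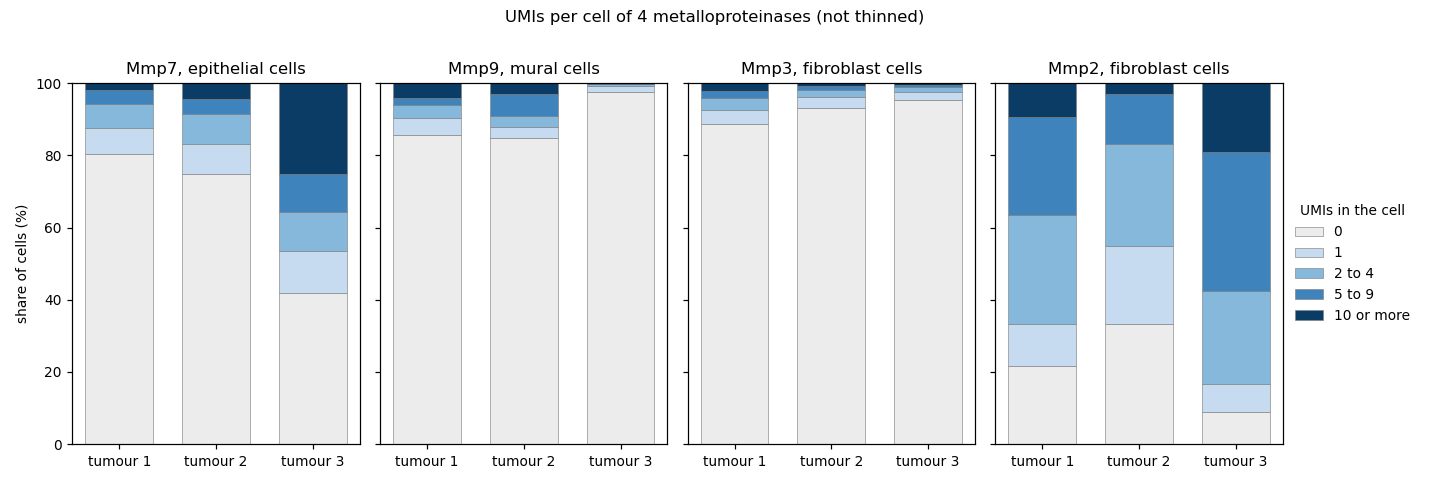
Share of cells (percent) by the number of UMIs in the cell, for Mmp7 in epithelial, Mmp9 in mural, and Mmp3 and Mmp2 in fibroblast cells of each tumour, without thinning. Cells with 10 or more Mmp7 UMIs form 25.3% of epithelial cells in tumour 3, and Mmp2 is the only one of the 4 with UMIs in most cells of its class in all 3 tumours.

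Mmp13, the main interstitial collagenase of mice, was scarce everywhere and sat in few cells. Its level was 12.7, 10.9 and 4.596 CPM in fibroblast cells, 6.12, 3.08 and 0.744 CPM in epithelial cells and 10.8, 6.07 and 6.18 CPM in mural cells. These ranges overlapped, although fibroblast cells were higher than epithelial cells within each tumour. The log2 fold change of fibroblast over epithelial cells was 1.80 ± 0.37 (edgeR adjusted p = 0.001619), but 1.09 with only Lum-positive fibroblast cells (adjusted p = 0.09303), and without the tumour as a block the adjusted p was 0.1637. Only 40, 35 and 21 fibroblast cells had a UMI, and the fullest held 37, 49 and 13 UMIs. Cells of no class held 35.5%, 35.5% and 32.8% of the Mmp13 UMIs of the sorted cells of a tumour. Their Mmp13 level was 33.9, 7.37 and 5.38 CPM. Mmp13 was the member that went against Lum in all 3 tumours, at 4.397, 8.78 and 4.09 CPM in fibroblast cells with Lum and 25.4, 12.2 and 6.27 CPM in those without. The endothelial call (log2 fold change 2.04 ± 0.58 over epithelial cells, edgeR adjusted p = 0.02148) rests on tumour 1, where 23 of the 26 UMIs lay in a single cell, while tumour 3 had none. It was lost after thinning (adjusted p = 0.3579) and turned to -1.73 when 2 UMIs of each marker were asked for.

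Proximal promoters were taken from RefSeq on GRCm38.p6 and were at hand for Mmp3, Mmp7, Mmp11, Mmp13, Mmp14, Timp1, Timp2 and Timp3. The 250 bases before each start were searched on both strands for the AP-1 site TGANTCA, which is its own reverse complement, the TATA box TATAAA and the GC box GGGCGG. An AP-1 site lay 46 bases before the start of Mmp3, 63 before the first start of Mmp7 and 35 before that of Mmp13, and none in the windows of Mmp11, Mmp14, Timp1, Timp2 and Timp3 or of a second Mmp7 start. Of 27025 mouse promoter windows 6.87% held this site, 12.97% a TATA box and 32.9% a GC box. The same 3 windows, and no other of these, had a TATA box, whereas GC boxes were found in those of Mmp11, Mmp14, Timp1, Timp2 and Timp3. The last 100 bases before the start are shown for the 3 genes with the AP-1 site in capitals, and for Mmp14, found before thinning in most fibroblast and mural cells, for comparison. They lie on the plus strand at chr9:7445722-7445821, chr9:7691990-7692089, chr9:7272414-7272513 and chr14:54431498-54431597.
Mmp3: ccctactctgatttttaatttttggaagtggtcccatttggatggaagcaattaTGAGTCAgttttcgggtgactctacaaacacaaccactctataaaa
Mmp7: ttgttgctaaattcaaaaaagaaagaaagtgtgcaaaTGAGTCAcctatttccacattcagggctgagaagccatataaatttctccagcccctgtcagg
Mmp13: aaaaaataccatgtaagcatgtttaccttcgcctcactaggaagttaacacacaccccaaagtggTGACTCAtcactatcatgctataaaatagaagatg
Mmp14: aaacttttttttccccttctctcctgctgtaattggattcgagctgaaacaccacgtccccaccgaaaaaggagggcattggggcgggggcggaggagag
A match describes the letters of the window, and whether any factor binds there was not measured.

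Timp1, a soluble inhibitor of most metalloproteinases, was highest in fibroblast and mesothelial cells. Fibroblast cells held 2298, 2730 and 1002 CPM and mesothelial cells 1763, 2127 and 750 CPM. Both were highest in tumour 2 and lowest in tumour 3, and their log2 difference, mesothelial minus fibroblast, was -0.28 ± 0.27 (edgeR adjusted p = 0.5746). Epithelial cells held 145, 587 and 98.2 CPM, the fold change of fibroblast cells over them being 3.22 ± 0.28 (edgeR adjusted p = 9.466e-07). Mural cells, at 429, 747 and 300 CPM, lay between, with a log2 fold change of -2.16 ± 0.27 from fibroblast cells (edgeR adjusted p = 9.52e-05) and 1.06 ± 0.26 over epithelial cells (edgeR adjusted p = 0.006631). The latter call was lost without tumour 1 (adjusted p = 0.1058) and without tumour 3 (adjusted p = 0.1284).

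Tumour 2 had the most Timp1 in every class. In epithelial cells its level was 5.98 times that of tumour 3, and a UMI was found in 17.5%, 35.6% and 14.3% of thinned epithelial cells. Part of this lay in few cells, the fullest of tumour 2 holding 343 UMIs. In its endothelial sum of 15 cells, 157 of 177 Timp1 UMIs came from a single cell. The cells of no class held 457, 1758 and 159 CPM, and in tumour 2 they made up 36.5% of the Timp1 UMIs of the sorted cells. Timp1 thus ran opposite to Mmp2 across the fibroblast cells of the 3 tumours: tumour 2 was lowest in Mmp2 and highest in Timp1, tumour 3 the reverse.

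Timp3, the inhibitor that stays bound to the matrix and also blocks ADAM proteases, separated all other classes from epithelial cells. Fibroblast cells held 1236, 894 and 1480 CPM, mesothelial cells 1178, 1306 and 977 CPM, and epithelial cells 37.8, 52.9 and 32.1 CPM. Fibroblast cells exceeded epithelial cells by a log2 fold change of 4.84 ± 0.43 (edgeR adjusted p = 1.227e-06), mural cells by 3.43 ± 0.42 (edgeR adjusted p = 2.562e-05) and endothelial cells by 2.99 ± 0.46 (edgeR adjusted p = 0.0003512). Fibroblast and mesothelial cells differed by 0.11 ± 0.41 (edgeR adjusted p = 0.9143). Mural cells were uneven, at 310, 264 and 1113 CPM, and endothelial cells likewise at 276, 195 and 670 CPM, with tumour 3 highest in both. A UMI was found in 34.5%, 22.1% and 70.7% of thinned mural cells, where tumour 3 had the lowest share with Mmp9. The fall from fibroblast to mural cells, -1.41 ± 0.38 (edgeR adjusted p = 0.02361), was lost without tumour 1 (adjusted p = 0.365) and without tumour 2 (adjusted p = 0.05874). Timp1 and Timp3 lie within the synapsin genes Syn1 and Syn3, whose counts in fibroblast cells, 34, 86 and 27 UMIs of Syn1 and 179, 270 and 177 of Syn3, were small beside those of the inhibitors (36366, 60340 and 12428 of Timp1, and 19558, 19768 and 18351 of Timp3).

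**Figure D4:**
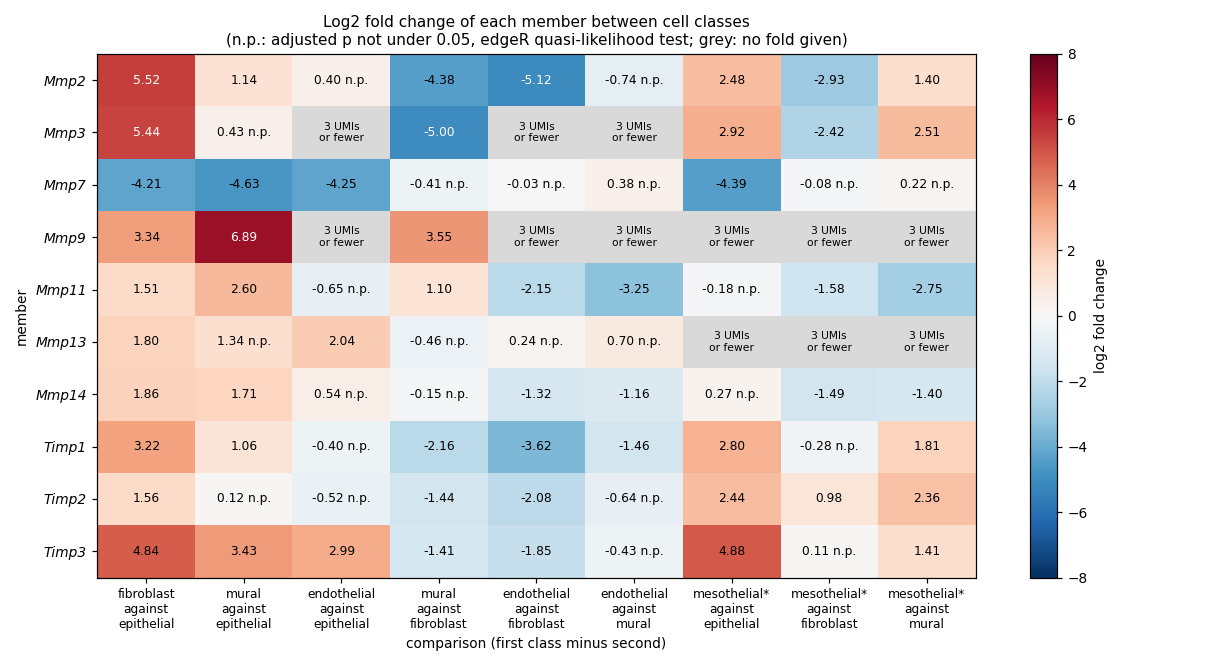
Log2 fold change of each member (rows) in 9 comparisons of cell classes (columns, first class minus second); n.p. marks values that did not pass edgeR's quasi-likelihood test at an adjusted p of 0.05, and grey boxes a class with 3 or fewer UMIs in the test. Mmp7 is the only member lower in fibroblast, mural, endothelial and mesothelial* (all cells with both markers) than in epithelial cells.

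Mesothelial cells, which line the surface of the pancreas and the abdominal cavity, held inhibitors at levels like those of fibroblast cells or above, and less of most of the proteases. Fitted with the other classes, they exceeded epithelial cells in 5 members (Mmp2, Mmp3, Timp1, Timp2 and Timp3), beside 19.5% of the 11756 genes tested, and were lower in Mmp7 (20.4%), 6 members beside 39.9%. Against fibroblast cells they were lower in 6 members, all of them metalloproteinases (Mmp2, Mmp3, Mmp9, Mmp11, Mmp13 and Mmp14; 6.93% of genes), and higher in Timp2 (8.92%), 7 beside 15.9%. Their Mmp2 level was 44.0, 32.2 and 132 CPM, a log2 fold change of -2.93 ± 0.31 from fibroblast cells (edgeR adjusted p = 4.408e-05), and their Mmp14 level was 142, 129 and 139 CPM, a change of -1.49 ± 0.18 (edgeR adjusted p = 0.0001057). Mmp9 had 1 and Mmp13 had 3 UMIs in these cells. Without tumour 1 only 3 of the 7 calls against fibroblast cells were left, Mmp3, Mmp9, Mmp11 and Mmp13 no longer passing. Against mural cells 9 members differed (26.5% of genes), Mmp2, Mmp3 and the 3 inhibitors higher (14.7%) and Mmp9, Mmp11, Mmp13 and Mmp14 lower (11.8%), and without tumour 1 this count was 5. Endothelial cells differed from mesothelial cells in 6 members (25.2% of genes), with Mmp2, Mmp3, Timp1, Timp2 and Timp3 lower (14.1%) and Mmp13 higher (11.2%), the last on the 26 endothelial UMIs of tumour 1, 23 of them in 1 cell, against 3 mesothelial UMIs. The cells share Dcn and Col3a1 with fibroblast cells, and mesothelial cells with a fibroblast in the same droplet were not told apart from mesothelial cells that make these transcripts.

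The split of fibroblast cells by Lum divided the members. Mmp2, Mmp3, Mmp11, Mmp14, Timp1 and Timp3 were higher with Lum in all 3 tumours, Mmp13 was lower in all 3, and Mmp7, Mmp9 and Timp2 went both ways. In tumour 2, Timp3 was at 1622 CPM with and 426 CPM without Lum, and Mmp14 at 444 and 217 CPM. Timp2 was nearly level there, at 563 and 520 CPM. The cells without Lum had the larger median UMI count in each tumour, 9460, 11109 and 5190 against 6660, 7789 and 4931, so the deeper cells were those with the lower levels of these 6 members. With only Lum-positive cells as the fibroblast class, 9 of the 10 members differed from epithelial cells, all but Mmp13, beside 46.5% of the 14145 genes tested in that fit.

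**Figure D5:**
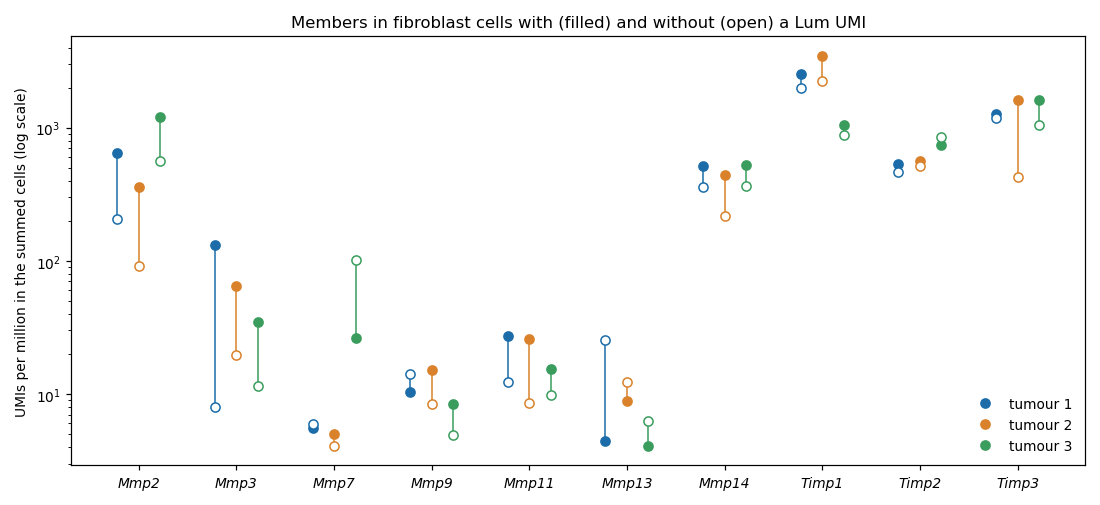
Level of each member in fibroblast cells with (filled) and without (open) a Lum UMI, in CPM on a log scale, a line joining the 2 groups of cells of a tumour. Mmp2 and Mmp3 are higher with Lum in each tumour and Mmp13 is lower.

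Other genes of the pathway were read from 6 lists, whose counts stand beside 22.7% of all genes higher and 17% lower in fibroblast than in epithelial cells, and 16.3% and 17.6% in mural cells. Of 16 other metalloproteinases, 9 had enough counts; 6 were higher and 2 lower in fibroblast than in epithelial cells. Mmp19 (log2 fold change 3.88 ± 0.45, edgeR adjusted p = 1.401e-05) was among the former. Mmp15, a membrane-type enzyme related to Mmp14, fell instead (-3.81 ± 0.32, edgeR adjusted p = 6.936e-07), with 16.9, 10.3 and 19.5 CPM in epithelial and 1.77, 0.452 and 1.21 CPM in fibroblast cells. Mmp10, a stromelysin closely related to Mmp3, was highest in mural cells, at 51.1, 178 and 11.3 CPM in mural, 7.77, 14.2 and 9.51 CPM in fibroblast and 1.70, 6.80 and 0.118 CPM in epithelial cells. Its log2 fold change of mural cells was 4.85 ± 0.65 over epithelial (edgeR adjusted p = 8.933e-05) and 2.13 ± 0.64 over fibroblast cells (edgeR adjusted p = 0.04188). In both Mmp9 and Mmp10, tumour 3 had the lowest mural level.

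The list of other inhibitors had 7 genes and also held Pcolce and Pcolce2, which are known as enhancers of procollagen C-proteinase. Of the 7 genes, 5 were higher and 1 lower in fibroblast than in epithelial cells. Reck, a membrane-anchored inhibitor of Mmp2, Mmp9 and Mmp14, was among the higher ones (log2 fold change 4.52 ± 0.46, edgeR adjusted p = 3.934e-06). Reck was also higher in mural than epithelial cells (4.46 ± 0.57, edgeR adjusted p = 3.98e-05), as was Tfpi2, a serine protease inhibitor (5.99 ± 0.46, edgeR adjusted p = 3.916e-07). Of 15 ADAM and ADAMTS proteases, 10 were higher and 2 lower in fibroblast cells and 7 and 2 in mural cells. Adamts4, which cleaves aggrecan and versican, changed by 7.74 ± 0.41 in mural over epithelial cells (edgeR adjusted p = 1.805e-08). Of 6 tested genes of plasminogen activation, 3 were higher in fibroblast than epithelial cells and none lower, including the inhibitor Serpine2 (4.21 ± 0.20, edgeR adjusted p = 1.463e-08). Of 8 tested activators and partners of metalloproteinases, 2 were higher and 4 lower in fibroblast cells. Lcn2, the protein that binds Mmp9, was among the lower ones (-2.94 ± 0.42, edgeR adjusted p = 7.87e-05), and it was lower in mural than epithelial cells too (-4.13 ± 0.47, edgeR adjusted p = 1.514e-05), the class with the most Mmp9. Of 10 substrates, 9 were higher and 1 lower in fibroblast cells, and Col4a1, a chain of the basement membrane collagen cut by Mmp2 and Mmp9, was higher in mural than fibroblast cells (2.36 ± 0.23, edgeR adjusted p = 1.518e-05). The median log2 fold change of fibroblast over epithelial cells was 2.72 for the other metalloproteinases and 1.82 for the ADAM and ADAMTS proteases. For the list of other inhibitors, with Pcolce and Pcolce2 in it, the median was 2.66. It was 1.90 for plasminogen activation, -0.54 for the activators and 3.48 for the substrates, and 0.04 over all genes tested.

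The authors' deposited table of 19 cell clusters gave mean UMI values for the members. In the authors' deposited table Mmp9 was highest in clusters 12 (1.78) and 15 (0.582), the clusters that were also highest in Rgs5 and Higd1b. Mmp13 too was highest in clusters 15 (0.273) and 12 (0.270) of the authors' deposited table, where the third value was 0.194 in cluster 3. Mmp7 was at 11.6 in cluster 1 of the authors' deposited table and 2.33 in the next, cluster 13. Mmp3 had its highest value, 2.55, in cluster 11 of the authors' deposited table, while Mmp2 was spread over clusters 2 (9.31), 11 (7.14) and 4 (4.20). Timp1 and Timp3 were both highest in cluster 4 of the authors' deposited table (30.8 and 17.2), and Timp2 in cluster 9 (7.06), the cluster highest in Upk3b and Lrrn4. The clusters mix cells of all tumours, and these means have no error.

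For each member but Mmp7, the 2 genes with the most similar profile were sought over 11 sums (the classes and tumours that entered the tests), by Pearson's r of log2(CPM + 1) among 10815 genes with at least 10 CPM in 1 sum. Cdh11, a cadherin of mesenchymal cells, and Itm2a came closest to Mmp2 (r = 0.975 and 0.971). Heyl, a Notch target of mural cells, and Pde1b came closest to Mmp9 (0.986 and 0.979), and Dlg2 and Rem1 to Mmp11 (0.990 and 0.988). The pairs were Adcy7 and Lgi2 for Mmp3 (0.987 and 0.982), Rtp4 and Armcx1 for Mmp13 (0.949 and 0.933) and Kdelr3 and Nt5dc2 for Mmp14 (0.974 and 0.972). Among the inhibitors they were Mgarp and Ndn for Timp1 (0.959 and 0.955), Ltbp2, a protein of elastic microfibrils, and Zfyve21 for Timp2 (0.963 and 0.942) and Hdgfrp3 and Fkbp7 for Timp3 (0.971 and 0.965). The sums share libraries and cell classes, so these values describe likeness only.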

How the data were processed

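Single-cell RNA of 3 tumours was measured with 10x 3' v2 chemistry. The deposited matrix holds raw UMI counts, whole numbers for 28692 genes and 19576 barcodes, and the barcode suffix gives the tumour, per the labels. The submitters' processing notes name Cell Ranger 2.1.1 and Seurat 3.0; for the genome build, the annotation and strand use: not given in the sources used here. Per the file headers, a table deposited by the authors lists for each cluster a mean UMI value (a score whose scaling is unstated), a log2 change and a p-value after adjustment; only the mean is printed.

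Barcodes with under 500 genes or over 20% mitochondrial counts were left out. Scrublet (scanpy 1.11.5) marked 74, 94 and 144 cells as doublets, which were kept and left out in an alternative. Counts were summed per class and tumour (at least 20 cells) and tested with edgeR 4.0.16 (R 4.3.3): TMM scaling, low-count filter, a term for the class and the tumour as a replicate block, since all classes were cut from the same tumours, and the quasi-likelihood test with Benjamini-Hochberg adjustment over all genes tested. A gene was called at an adjusted p under 0.05. The 11 sums gave 6 comparisons; a second fit with mesothelial cells, added after the data were seen, gave 4 more. Log2 fold changes carry model standard errors. The fit was tested on simulated data with known folds. Intervals are exact at 95% and cover counting error only. All 10 members are named; of the other lists, only genes among the 4 largest called changes of a list and comparison, and for each member the 2 most similar genes (those of Mmp7 are not reported here). The members, classes and lists were chosen with earlier results of these data known. Alternatives covered scaling, filters, DESeq2 1.42.0, the replicate block, each tumour left out, stricter markers, thinning and cells with immune markers. No per-sample columns were left unused.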

Additional observations from a re-analysis of the deposited data

How the results depend on the processing

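Of the 100 member values in 10 comparisons, 66 passed the test. Over all alternatives their value kept sign and call in 956 cases, kept sign but no longer passed in 49 and turned sign in 1; of the 34 that had not passed, 449 alternative values were alike, 15 passed and 32 turned sign. The log2 fold changes that turned were these. Asking for 2 UMIs of each marker gave Mmp13 values of -0.053 (mural against epithelial), -1.73 (endothelial against epithelial), -3.44 (endothelial against fibroblast) and -1.68 (endothelial against mural), Mmp7 values of 0.46 (mural against fibroblast), 0.16 (endothelial against fibroblast), -0.30 (endothelial against mural) and -1.13 (mesothelial against mural), and -0.15 for Timp3 (mesothelial against fibroblast). Thinning gave -0.40 for Mmp3 (mural against epithelial), -4.06 for Mmp9 (endothelial against epithelial), -0.48 for Mmp13 (endothelial against fibroblast), -0.098 and -0.025 for Mmp7 (endothelial against mural and mesothelial) and -0.12 for Timp3 (mesothelial against fibroblast). Mmp7 in endothelial against fibroblast cells turned to 0.11 with RLE factors, 0.24 with library totals, 0.022 with DESeq2, 0.31 without the block, 0.0089 with all barcodes, 0.44 without doublets, 0.39 with Lum-positive fibroblasts and 0.021 without neutrophil markers. In mesothelial against fibroblast cells Mmp7 turned to 0.023 (DESeq2), 0.30 (no doublets) and 0.15 (Lum), and Timp3 to -0.28 (Lum). Mmp13 in mural against fibroblast cells turned to 0.20 (Lum), and Mmp7 in mesothelial against mural cells to -0.32 without the block. With 1 tumour left out in turn, Mmp14 in mural against fibroblast cells ranged from -0.25 to 0.11, Mmp7 from -0.43 to 0.38 in mesothelial against fibroblast cells and from -0.081 to 0.90 in mesothelial against mural cells, and Timp3 from -0.17 to 0.35 in mesothelial against fibroblast cells. The cause was not tested.

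Without the replicate block, the genes called fell from 5889 to 3626 (fibroblast against epithelial), 5054 to 3364 (mural against epithelial), 3348 to 2083 (endothelial against epithelial), 2182 to 1105 (mural against fibroblast), 2553 to 1471 (endothelial against fibroblast) and 1839 to 1126 (endothelial against mural), and with mesothelial cells from 4694 to 3041 (epithelial), 1864 to 858 (fibroblast) and 2966 to 1929 (endothelial). The members called without the block were 1 for endothelial against epithelial, 3 for mural against fibroblast, 5 for mesothelial against mural and 3 for endothelial against mesothelial cells. Leaving out 1 tumour in turn, the genes called ranged from 3611 to 5266 (fibroblast against epithelial), 3085 to 4434 (mural against epithelial), 878 to 2027 (mural against fibroblast), 2584 to 4227 (mesothelial against epithelial), 760 to 1419 (mesothelial against fibroblast) and 1528 to 2530 (mesothelial against mural), each lowest without tumour 1. The members called ranged from 3 to 7 for mesothelial against fibroblast and from 5 to 8 for mesothelial against mural cells. Thinning left 2607, 1099, 1855 and 1765 genes in the mesothelial comparisons with epithelial, fibroblast, mural and endothelial cells, with 8144 genes tested. Library totals in place of TMM moved the share of calls that were higher from 40.8% to 53.1% (endothelial against fibroblast), 40.2% to 50.2% (mural against fibroblast), 47.5% to 55.7% (endothelial against epithelial), 56.3% to 46.2% (mesothelial against fibroblast), 55.4% to 42.4% (mesothelial against mural) and 44.3% to 60.0% (endothelial against mesothelial), and the median log2 fold change of all genes from -0.24 to -0.04, -0.16 to -0.03, -0.21 to -0.06, -0.06 to -0.17, 0.0088 to -0.17 and -0.07 to 0.16 in the same order; no called member turned sign under another scaling. Endothelial cells rest on 2 tumours and could not be compared without tumour 1 or 3. Depth limits Mmp3, Mmp9 and Mmp13, with 5 or fewer UMIs in some classes.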
